A study of Rattus norvegicus with 8 samples.

Results

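Complement is described here through 9 genes in the hearts of aged female rats. They are the 3 chains of C1q (C1qa, C1qb and C1qc), the proteases C1r and C1s, the central component C3, the inhibitor Serping1, the fluid-phase regulator Clu and the receptor C3ar1. Every probe set annotated to exactly 1 of these symbols was taken, which gave 10 probe sets for 9 genes, out of 20826 probe sets with 1 symbol that stand for 14217 genes. Clu had 2 probe sets and each other gene had 1. Of the 10, 9 probe sets of 8 genes passed a filter on dim probe sets, set at the 40th percentile of mean signal, and were tested. C3ar1 fell just under that filter and is given by its values.

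The rats were Norway Brown females of 18 to 22 months, assigned at random to 4 groups. Sham rats were anesthetized and opened but kept their ovaries. The other 3 groups were ovariectomized: the ovariectomy group had nothing further, the early estradiol group received a 0.5 mg pellet of 17-β estradiol (90-day release) under the skin at surgery, and the late estradiol group received the same pellet at 9 weeks after surgery. Each array held pooled RNA of 3 hearts and each group had 2 arrays (replicates 1 and 2), so the spread between arrays averages over animals and may be technical in part. RNA came from whole heart, in which fewer cells of a type and less RNA per cell cannot be told apart. Levels are given as log2 signal, quantile normalized between arrays.

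Complement is a cascade of plasma and tissue proteins that marks immune complexes, microbes and dying cells for removal. In the classical pathway the hexameric recognition protein C1q binds its target and activates the proteases C1r and C1s, which leads to the cleavage of C3, and C3 fragments coat the target and signal to phagocytes. C1q is made mainly by macrophages and related myeloid cells, C1r, C1s and Serping1 mainly by hepatocytes and by stromal cells such as fibroblasts, and C3 by the liver and, in tissues, by epithelial, stromal and myeloid cells.

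Both early estradiol arrays lay above the other 6 arrays for C3, C1qb and Serping1, whereas Serping1 and the brighter of the 2 Clu probe sets were lowest on the 2 late estradiol arrays, and the dimmer Clu probe set had its highest group mean there. No complement probe set passed the threshold in any of the 6 pairwise comparisons (limma, Benjamini-Hochberg), where 0% of the 18625 probe sets tested passed. The values below are therefore descriptions of these 8 arrays, read against the spread between the pools.

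RefSeq (build GRCr8) promoters were available for 5 of the 9 genes. The 250 bases before the start site are shown for C3, which had the widest range, and for C1qa and C1qb, of the C1q genes that lie together on chromosome 5. Capitals mark matches on either strand to any of 5 motifs: the estrogen response element (GGTCA and TGACC with any 3 bases between), its single-arm core AGGTCA, an NF-kB site (GGGA and CC with any 4 bases between), a gamma activated site (TTC and GAA with any 3 bases between) and the PU.1 core GAGGAA.
C3: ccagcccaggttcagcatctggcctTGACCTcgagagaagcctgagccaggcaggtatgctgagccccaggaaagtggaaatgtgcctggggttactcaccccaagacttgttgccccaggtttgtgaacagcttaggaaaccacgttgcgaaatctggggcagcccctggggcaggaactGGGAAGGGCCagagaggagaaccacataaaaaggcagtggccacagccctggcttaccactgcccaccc
C1qa: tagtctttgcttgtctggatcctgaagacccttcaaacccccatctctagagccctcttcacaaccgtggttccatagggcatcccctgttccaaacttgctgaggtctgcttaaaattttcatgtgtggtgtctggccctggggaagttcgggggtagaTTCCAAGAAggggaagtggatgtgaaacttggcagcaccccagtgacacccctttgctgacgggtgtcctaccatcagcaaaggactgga
C1qb: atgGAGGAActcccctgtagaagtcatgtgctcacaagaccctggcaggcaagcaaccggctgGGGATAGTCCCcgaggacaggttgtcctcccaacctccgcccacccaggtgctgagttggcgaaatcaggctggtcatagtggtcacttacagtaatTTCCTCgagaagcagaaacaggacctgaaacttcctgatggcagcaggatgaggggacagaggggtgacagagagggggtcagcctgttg
The C3 window is chr9:2201340-2201589 on the minus strand, that of C1qa is chr5:154419934-154420183 and that of C1qb is chr5:154407828-154408077, both on the minus strand. The C3 window held 1 single-arm core of the estrogen response element, on the strand opposite to the printed one, starting 225 bases before the start. It also held 1 NF-kB match starting 69 bases before the start. These motifs occur in 14.1% and 16.4% of all 33469 RefSeq promoter windows of that length. The full estrogen response element occurs in 0.0239% of windows and its letters are in none of the 5 windows examined. The C1qa window held 1 gamma activated site (7.67% of windows), and the C1qb window held 2 matches to the PU.1 core (23.3% of windows) and 2 overlapping NF-kB matches. A match is a description of the letters and does not show that a factor binds there.

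The arrays differed in brightness by replicate number, with a 2% trimmed mean deposited signal of 28.1 to 69.8 on replicate 1 arrays and 104 to 137 on replicate 2 arrays. The dimmest array, late estradiol replicate 1, also had the highest ratio of 3' to 5' Gapdh signal, which rises as RNA degrades, at 2.70, where the other arrays had 1.26 to 1.65. The cardiomyocyte markers measured (5 of 6 listed, among them Myh6 and Tnnt2) were at percentiles 99.4 and above of signal.

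**Figure D1:**
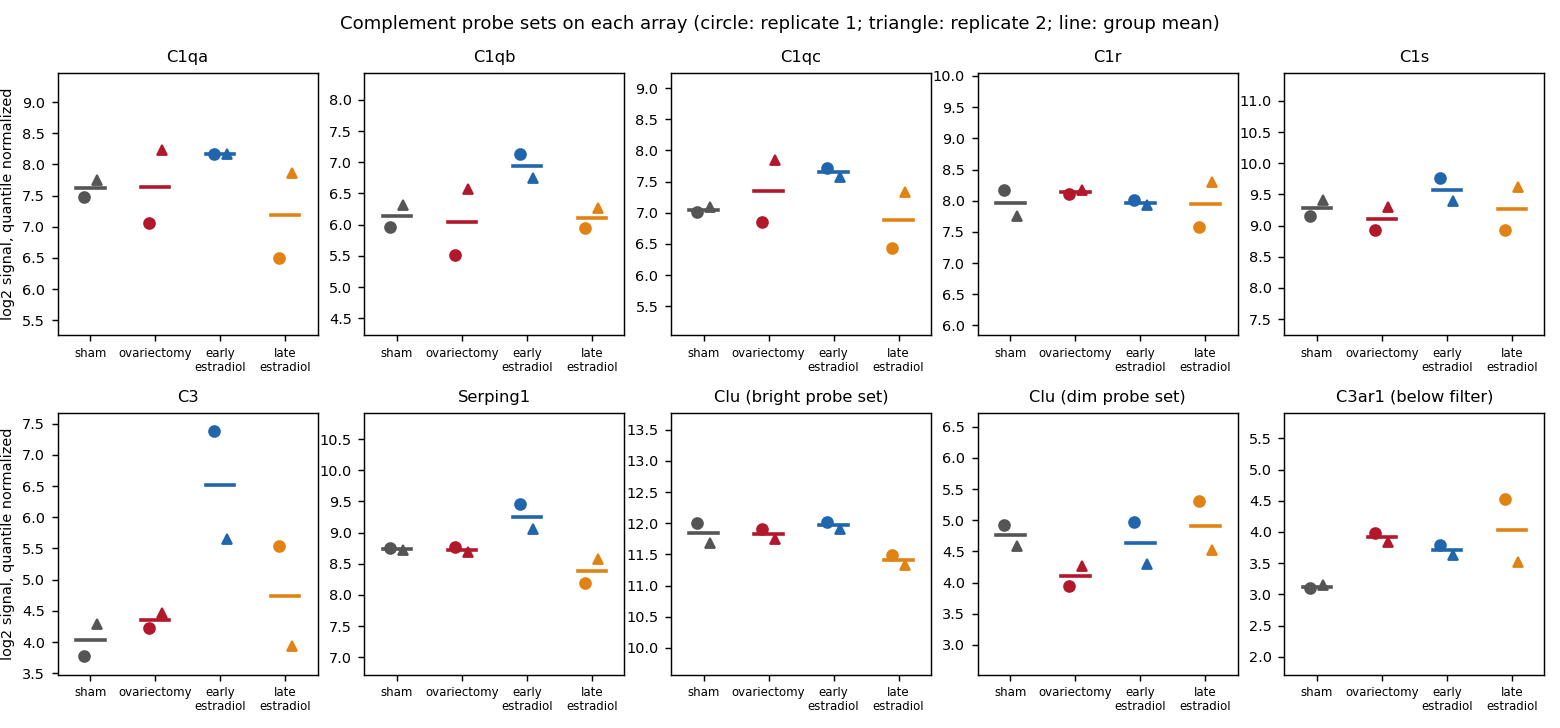
Log2 signal (y axis) of the 10 complement probe sets on each array, by group (x axis); circles are replicate 1, triangles are replicate 2 and lines are group means. Each panel spans the same height of log2 units, C3 has the widest range (3.62), and both early estradiol points lie above the other 6 for C3, C1qb and Serping1.

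C3, the component whose cleavage all complement pathways share, had the largest differences. Its log2 signals were 3.77 and 4.29 in sham, 4.23 and 4.47 after ovariectomy, 7.39 and 5.65 with early estradiol, and 5.55 and 3.94 with late estradiol, in the order of replicates 1 and 2. Both early estradiol arrays were above the other 6, although late estradiol replicate 1 reached nearly the lower of them. The deposited signals, before any normalization between arrays, were 102.9 and 88.8 with early estradiol and 14.1 to 31.7 on the other 6 arrays.

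The early estradiol mean of C3 was 6.52 ± 1.23 (SD, n = 2), 4.50-fold above ovariectomy, with a log2 difference of 2.17 ± 0.69 (SE). It did not pass over all probe sets (limma adjusted p = 0.9998). Against sham the difference was 2.49 ± 0.69 (limma adjusted p = 0.9999). With late estradiol, C3 stood 0.39 ± 0.69 from ovariectomy, with a 95% interval from -1.14 to 1.93, and its replicates went opposite ways (1.32 and -0.53). The size with early estradiol rested in part on 1 array: without early estradiol replicate 1 the difference from ovariectomy was 1.31, and without replicate 2 it was 2.96. Late against early estradiol, C3 stood at -1.77 ± 0.69 (limma adjusted p = 0.987), which was -0.91 without early estradiol replicate 1, -0.96 without late estradiol replicate 2 and -2.65 without late estradiol replicate 1. With 32 added to the signal before the log, the difference from ovariectomy was 1.28 (C3 was at percentile 58.8 of signal by its mean over all arrays). The sham and ovariectomy values of C3, 3.77 to 4.47, lay little above the filter at 3.69, so its folds are taken over a dim signal.

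Several other genes were, like C3, highest on early estradiol replicate 1. On early estradiol replicate 2, where C3 was 0.74 above its own mean, the genes named below stood from -0.16 (Ccn3) to 0.56 (S100a9). By the root mean square difference between profiles over the 8 arrays, each centred on its mean, the nearest of 10442 genes to C3 was Myl4, the atrial essential myosin light chain, at 0.37. Next came S100a9 and S100a8, calcium-binding proteins of neutrophils and monocytes, at 0.44 and 0.59, with Ccn3 between them at 0.58, and Pla2g2a, a secreted phospholipase of inflammation, at 0.67. The root mean square of the C3 profile itself was 1.14. Myl4 was at 8.59 on early estradiol replicate 1 and at 5.74 to 7.50 on the other 7 arrays. S100a9 was at 8.19 on that array and 6.03 on early estradiol replicate 2, against 4.06 to 6.00 elsewhere.

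Among markers of cells that a whole heart can hold, 2 of the 7 neutrophil genes were measured above the filter (S100a8 and S100a9). Their summed log2 level was 6.58 to 8.61 with early estradiol, against 5.08 to 5.44 in sham, 4.83 to 5.91 after ovariectomy and 5.67 to 6.30 with late estradiol. The other neutrophil genes on the array, Camp and Csf3r, were under the filter. Of 8 mesothelial genes, 5 were measured, at a summed level of 7.45 to 7.55 with early estradiol, 7.13 to 7.23 in sham, 7.09 to 7.22 after ovariectomy and 7.06 to 7.81 with late estradiol, and Msln and Krt8 were under the filter. The part of these cells in the C3 result was not tested.

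Serping1 encodes the C1 inhibitor, which inactivates C1r and C1s. Its log2 signals were 8.76 and 8.72 in sham, 8.77 and 8.68 after ovariectomy, 9.45 and 9.06 with early estradiol, and 8.20 and 8.58 with late estradiol. The 4 arrays without estradiol lay close together, both early estradiol arrays were above them and both late estradiol arrays below. Early estradiol differed from ovariectomy by 0.53 ± 0.21, a 1.44-fold difference (limma adjusted p = 0.9998), and late estradiol by -0.34 ± 0.21 (limma adjusted p = 0.943). The difference between late and early estradiol, -0.87 ± 0.21, had the smallest unadjusted p of any complement probe set in any comparison (limma adjusted p = 0.987). It was -1.26 between replicate 1 arrays and -0.48 between replicate 2 arrays, and -0.68 without early estradiol replicate 1. The larger replicate difference used late estradiol replicate 1, the dimmest array, with the Gapdh ratio of 2.70.

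Fibroblast markers, of cells that make Serping1, C1r and C1s, were low on both late estradiol arrays by summed level, which bright genes dominate. Their median centred log2 value was low only on late estradiol replicate 1 (-0.95). It was -0.049 on late estradiol replicate 2, within the -0.086 to 0.45 of the arrays of the other groups. All 9 listed genes were tested, and their summed log2 level was 11.86 to 12.36 with late estradiol, against 12.46 to 12.49 in sham, 12.72 to 12.83 after ovariectomy and 12.53 to 12.74 with early estradiol. Late against early estradiol, 8 of the 9 were lower and 1 higher, with a median of -0.83 and 0 past adjustment (limma). With early estradiol against ovariectomy, 4 were higher and 5 lower, with a median of -0.062. The part of fibroblast content in the Serping1 values was not tested.

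The 3 genes of C1q, which encode the chains of the recognition molecule, are next to each other on chromosome 5 in RefSeq, in the order C1qb, C1qc, C1qa. C1qb was at 5.96 and 6.31 in sham, 5.52 and 6.58 after ovariectomy, 7.13 and 6.75 with early estradiol, and 5.95 and 6.26 with late estradiol. Both early estradiol arrays were above the other 6, but ovariectomy replicate 2 came within 0.17 of the lower one.

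C1qa was at 7.48 and 7.76 in sham, 7.06 and 8.23 after ovariectomy, 8.16 on both arrays with early estradiol, and 6.498 and 7.87 with late estradiol. C1qc was at 7.01 and 7.09 in sham, 6.86 and 7.84 after ovariectomy, 7.72 and 7.58 with early estradiol, and 6.43 and 7.33 with late estradiol. For both of these chains ovariectomy replicate 2 was the highest of the 8 arrays and late estradiol replicate 1 the lowest, so that the early estradiol arrays overlapped those of ovariectomy but not those of sham or late estradiol.

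Early estradiol stood 0.89 ± 0.38 above ovariectomy for C1qb (limma adjusted p = 0.9998), 0.52 ± 0.45 for C1qa and 0.30 ± 0.37 for C1qc. The replicates differed in size: the differences were 1.61, 1.11 and 0.86 between replicate 1 arrays, against 0.17, -0.06 and -0.27 between replicate 2 arrays. Without ovariectomy replicate 1, they were 0.37 for C1qb, -0.06 for C1qa and -0.19 for C1qc. Against sham, where the replicates went the same way, early estradiol stood 0.80 ± 0.38 higher for C1qb, 0.54 ± 0.45 for C1qa and 0.60 ± 0.37 for C1qc. Late estradiol stood below early estradiol by -0.84 ± 0.38 for C1qb, -0.98 ± 0.45 for C1qa and -0.77 ± 0.37 for C1qc, of which the replicate 2 arrays gave -0.49, -0.30 and -0.25.

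Of the 3 chains, C1qa and C1qc followed each other most closely over the arrays, and C1qa and C1qb least. The root mean square difference between centred profiles was 0.19 for C1qa and C1qc, 0.29 for C1qb and C1qc, and 0.35 for C1qa and C1qb. The largest gap was on late estradiol replicate 1, where C1qa lay 0.79 lower relative to its own mean than C1qb did. The mean profile of the chains had a root mean square of 0.47, and the nearest genes to it were Gsta1, a glutathione transferase, at 0.14, Scap, the escort protein of SREBP, at 0.18, and Arap1, Tor2a and Tgif1 at 0.20 each.

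Macrophage markers were compared with the C1q chains array by array. Of 14 macrophage genes, 12 were measured, 1 (Ms4a7) was under the filter, and their median centred log2 value was highest on ovariectomy replicate 2 (0.76), followed by early estradiol replicates 1 and 2 (0.46 and 0.14), and lowest on late estradiol replicate 1 (-0.53). The mean of the C1q chains was 0.48, 0.61, 0.43 and -0.77 on these arrays. The summed log2 level of the macrophage list was 10.84 to 10.91 in sham, 10.91 to 12.30 after ovariectomy, 11.32 to 11.67 with early estradiol and 10.76 to 11.26 with late estradiol. Between groups the list and the chains parted in some comparisons. For early estradiol against ovariectomy, 6 of the 12 macrophage genes were higher and 6 lower, with a median of -0.0086, where the chains stood 0.30 to 0.89 higher. For ovariectomy against sham, 12 of 12 were higher, with a median of 0.35. There C1qa stood at 0.02 and C1qb at -0.09, but C1qc stood at 0.30, near the list median. Late against early estradiol, 2 were higher and 10 lower, with a median of -0.56, and 0 passed adjustment in these comparisons (limma). The part of macrophage content in the C1q values was not tested.

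**Figure D2:**
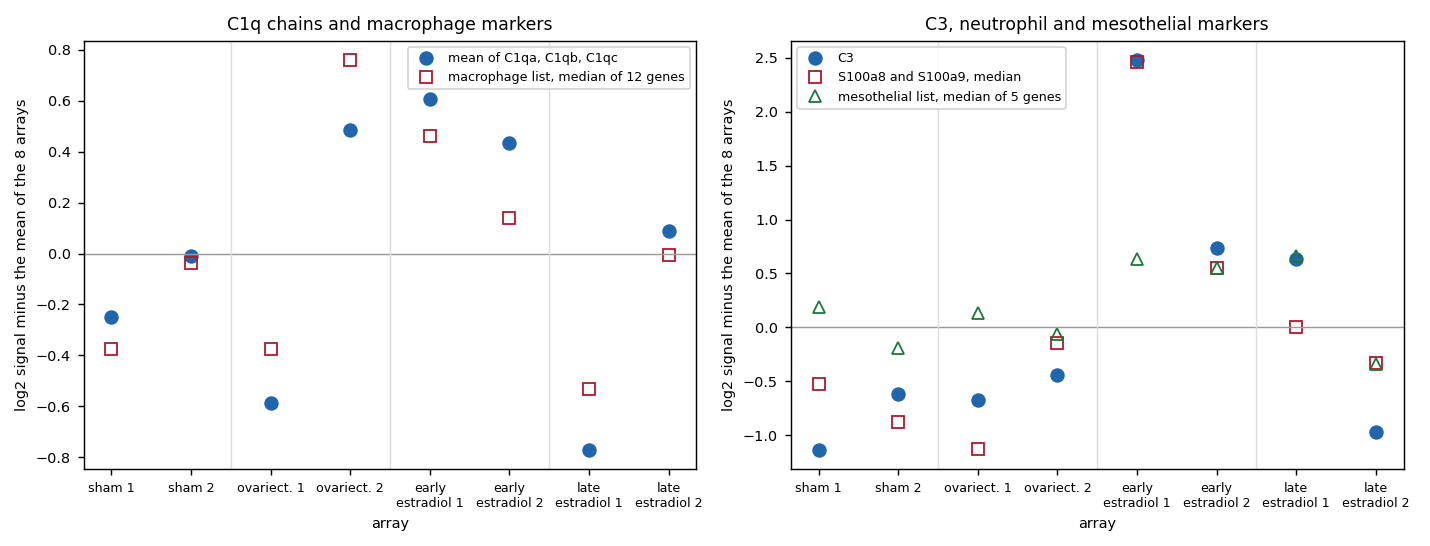
Log2 signal minus the mean of the 8 arrays (y axis) on each array (x axis). The left panel shows the mean of the C1q chains (filled circles) and the macrophage list median (open squares). Both were low on late estradiol replicate 1 (-0.77 and -0.53), ovariectomy replicate 1 (-0.59 and -0.37) and sham replicate 1 (-0.25 and -0.37). The right panel shows C3 (filled circles), the median of S100a8 and S100a9 (open squares) and the mesothelial list median (open triangles). C3 was at 2.48 and the S100 pair at 2.46 on early estradiol replicate 1.

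C1r and C1s, the proteases that C1q activates, are neighbouring genes on chromosome 4. C1s was at 9.15 and 9.40 in sham, 8.93 and 9.30 after ovariectomy, 9.76 and 9.40 with early estradiol, and 8.93 and 9.61 with late estradiol. The early estradiol arrays lay above both ovariectomy arrays, by 0.47 ± 0.25 on average, but overlapped sham and late estradiol. C1r was at 8.17 and 7.75 in sham, 8.11 and 8.18 after ovariectomy, 8.02 and 7.93 with early estradiol, and 7.58 and 8.31 with late estradiol. It had the narrowest spread of group means of the 10 probe sets (0.20), and its early estradiol arrays lay slightly below those of ovariectomy, by -0.17 ± 0.27.

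For C1r the 95% interval of late minus early estradiol ran from -0.62 to 0.57, so that a difference within these bounds could not be told from 0 with 2 arrays per group. The centred profiles of C1r and C1s differed by 0.30 (root mean square), and on ovariectomy replicate 1 C1r lay 0.49 higher relative to its own mean than C1s did.

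Clu encodes clusterin, a secreted chaperone that also inhibits the terminal complement complex. Its bright probe set (percentile 99.5 of signal) was at 12.01 and 11.68 in sham, 11.90 and 11.75 after ovariectomy, 12.02 and 11.91 with early estradiol, and 11.48 and 11.33 with late estradiol. Both late estradiol arrays lay below the other 6. The early estradiol arrays lay above those of ovariectomy only narrowly, at 11.9106 for the lower against 11.9043 for the higher. Late estradiol differed by -0.42 ± 0.16 from ovariectomy (limma adjusted p = 0.943), by -0.44 ± 0.16 from sham (limma adjusted p = 0.997) and by -0.56 ± 0.16 from early estradiol (limma adjusted p = 0.987). In the quantile normalized values the replicates were close to each other, at -0.42 and -0.42 against ovariectomy and -0.54 and -0.58 against early estradiol. With arrays scaled to a common trimmed mean, late estradiol stood at -0.22 from sham, -0.38 from ovariectomy and -0.40 from early estradiol, and early estradiol at 0.021 from ovariectomy. The unadjusted limma p of late estradiol was then 0.16 against ovariectomy and 0.14 against early estradiol, where quantile normalization gave 0.022 and 0.0048.

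The other Clu probe set, which was dim (percentile 54.3), went the other way. It was at 4.93 and 4.59 in sham, 3.94 and 4.27 after ovariectomy, 4.97 and 4.29 with early estradiol, and 5.31 and 4.52 with late estradiol. Its late estradiol arrays lay above those of ovariectomy, by 0.81 ± 0.55 (limma adjusted p = 0.943), and both ovariectomy arrays were below the other 6. The direction of Clu with late estradiol thus depended on the probe set.

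C3ar1, the receptor for the anaphylatoxin C3a on myeloid and other cells, had a mean log2 signal of 3.691 against a filter of 3.693. It was at 3.09 and 3.15 in sham, 3.98 and 3.84 after ovariectomy, 3.79 and 3.62 with early estradiol, and 4.53 and 3.51 with late estradiol. Both sham arrays were below the other 6, and the 3 ovariectomized groups overlapped except that early estradiol lay below ovariectomy. C3ar1 was not tested in the main setting, as a probe set at this signal is close to background, but was fitted in the setting with no filter.

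By comparison, the 9 tested probe sets can be set beside all 18625. The members were chosen with earlier results of these data known, so the shares over all probe sets give a scale and are not a test of the list. Both early estradiol arrays were above both ovariectomy arrays for 6 of the 9 (C1qb, C1s, C3, Serping1 and both of Clu), against 14.7% of all probe sets, and below for C1r, against 12.3%. The Clu probe sets cleared only narrowly, at 11.9106 against 11.9043 for the bright and 4.292 against 4.267 for the dim. Unadjusted limma p was under 0.05 for 3 of the 9 (C3, Serping1 and C1qb) and for 1.71% of all, and 0 passed after adjustment against 0%. The 3 became 1 with no intensity trend, 1 with no normalization between arrays, 1 without ovariectomy replicate 1 and 0 without early estradiol replicate 1. With arrays scaled to a common trimmed mean the 6 became 4. With no normalization between arrays the 6 became 1, C3, on a scale where replicate 2 arrays were brighter in every group. The 8 tested genes had a median of 0.49, all probe sets one of 0.02.

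For early estradiol against sham, 5 of the 9 probe sets were apart and higher (12.1% of all), 0 were apart and lower (12.7%), and 2 had an unadjusted p under 0.05 (0.773%), or 0 without early estradiol replicate 1, with 0 past adjustment (0%). The 5 were C3, Serping1 and the 3 chains of C1q, and the median gene difference was 0.53 against -0.00080 for all probe sets.

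For late against early estradiol, 6 of the 9 were apart and lower, against 16.3% of all, and 0 were apart and higher, against 15.5%. These 6 were C3, Serping1, the bright probe set of Clu and the 3 chains of C1q, and they became 5 with arrays scaled to a common trimmed mean. Unadjusted p was under 0.05 for 3 (C3, Serping1 and the bright Clu probe set) against 3.87% of all, a count that was 6 with a replicate block, 5 with no filter, 5 with 32 added and 1 with no normalization between arrays. It was 6 without either ovariectomy array, 5 without late estradiol replicate 2 and 2 without early estradiol replicate 1. After adjustment 0 passed adjustment against 0%, and the median gene difference was -0.80 against -0.01. Without late estradiol replicate 1, the dimmest array, the same 6 probe sets were apart and lower (30.3% of all, as 1 array is easier to separate), and 1 was apart and higher (C1r, against 32.1% of all).

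For late estradiol against ovariectomy, 2 of the 9 were apart and lower (Serping1 and the bright Clu probe set, against 13.4% of all) and 1 apart and higher (the dim Clu probe set, against 15.7%). An unadjusted p was under 0.05 for 1 (4.36% of all), and 0 passed adjustment (0%). For late estradiol against sham, 2 were apart and lower (16.1%), 0 apart and higher (14.5%), 1 had an unadjusted p under 0.05 (3.37%) and 0 passed adjustment (0%).

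For ovariectomy against sham, 0 were apart and higher (11% of all), 1 was apart and lower (the dim Clu probe set, against 14.1%), 0 had an unadjusted p under 0.05 (1.47%) and 0 passed adjustment (0%). The 8 gene differences ran from -0.17 to 0.32 with a median of 0.01, against -0.03 for all probe sets. The F test over the 4 groups called 0 of the 9 against 0% of all (limma, adjusted), and 3 had an unadjusted p under 0.05 against 1.86%, which became 0 without early estradiol replicate 1 and 0 with no normalization between arrays.

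These comparisons share arrays: the 2 early estradiol arrays enter 3 of them and the 2 ovariectomy arrays enter 3, and the C1q chains had similar profiles, so the counts are not independent of each other. The shares below, too, stand beside a list chosen with earlier results of these data known. Above the other 6 arrays on both early estradiol arrays were 3 of the 9 (C3, C1qb and Serping1), against 2.16% of all probe sets, and 0 were below them (1.99%). Below the other 6 on both late estradiol arrays were 2 (the bright Clu probe set and Serping1), against 4.39%, and 0 were above (4.16%). On both ovariectomy arrays 1 was below (the dim Clu probe set, against 3.28%) and 0 above (2.39%). For sham, 0 were above (2.24%) and 0 below (1.61%).

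**Figure D3:**
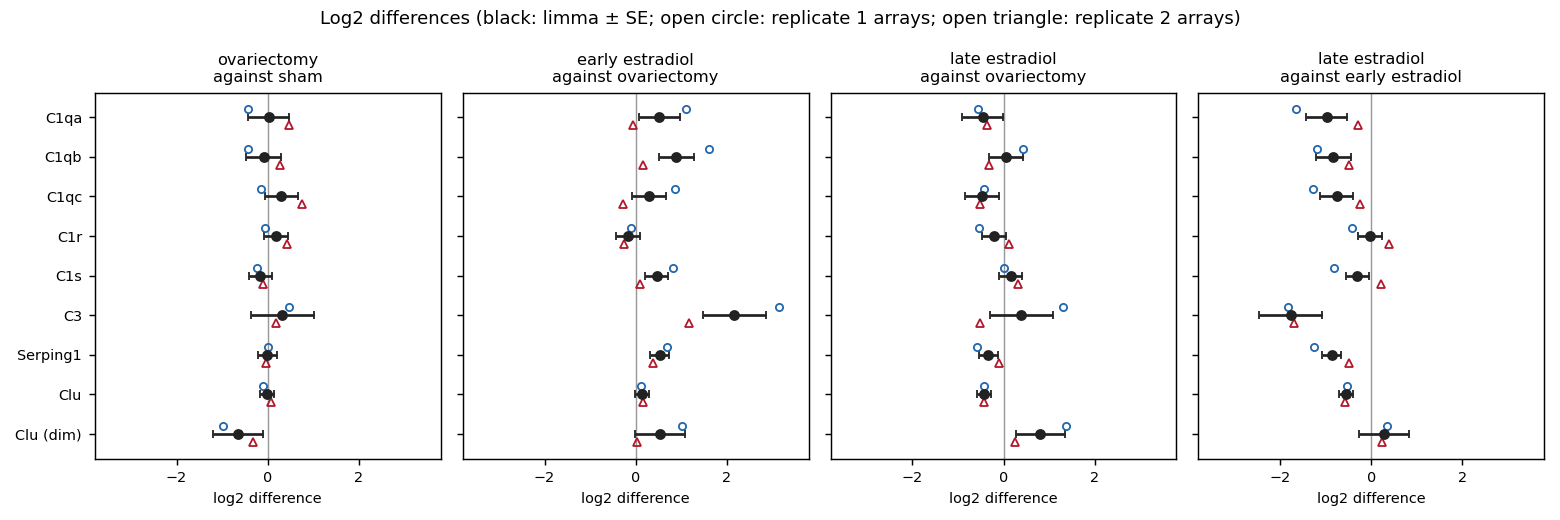
Log2 difference (x axis) of each tested complement probe set (y axis) in 4 comparisons; black points and bars are the limma estimate and its SE, open circles the difference between replicate 1 arrays and open triangles that between replicate 2 arrays. C3 stands at 2.17 for early estradiol against ovariectomy and at -1.77 for late against early estradiol, and most other estimates lie within 1 log2 unit of 0.

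Other complement genes were taken from the same fits. Of 41 further genes listed (other components, lectin pathway proteins, receptors and regulators), 29 were on the array with 1 symbol and 16 were tested. For early estradiol against ovariectomy, 9 were higher and 7 lower, with a median of 0.04, and 0 passed adjustment or had an unadjusted p under 0.05 (limma, against 0% and 1.71% of all probe sets). Those of smallest p were Cfd, the protease factor D of the alternative pathway, at 0.70 ± 0.37, C9, a component of the membrane attack complex, at -1.64 ± 0.89, and the lectin pathway proteases Masp1 and Masp2, at -0.35 ± 0.20 and 0.74 ± 0.44.

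For late against early estradiol, 6 of the 16 were higher and 10 lower, with a median of -0.21 and 0 past adjustment, led by Fcna, a ficolin that recognises sugars, at -1.29 ± 0.55 (limma adjusted p = 0.987). Fcna was at 3.502 on late estradiol replicate 1 and at 5.14 to 6.28 on the other 7 arrays. Colec11, a collectin, stood at -0.63 ± 0.32, Cfd at -0.60 ± 0.37, and C5ar1, the receptor of C5a, at -0.92 ± 0.60. Unadjusted limma p was under 0.05 for 1 of the 16, Fcna, against 3.87% of all probe sets, of which 0% passed adjustment. For ovariectomy against sham, 11 were higher and 5 lower, with a median of 0.17 and 0 past adjustment. Itgb2, the beta chain that complement receptors 3 and 4 share, had the smallest unadjusted p there (limma), with a difference of 1.12 ± 0.65. Itgb2 was at 7.43 on ovariectomy replicate 2 against 4.54 to 5.83 on the other 7 arrays.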

How the data were processed

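Total RNA of rat hearts, pooled from 3 hearts per array, was measured on 8 Affymetrix arrays in 4 groups of 2, grouped by their titles. The values the authors deposited are linear intensity, 1 per probe set and array. The submitters' processing notes name MAS5. No source used here gives its scaling target or detection calls. The deposited arrays differed in scale, so log2 values were quantile normalized (all 31042 probe sets without the 57 controls), and 18625 passed the filter (mean no lower than percentile 40). Tests used limma 3.58.1 (R 4.3.3; group means, 8 arrays, 4 residual degrees of freedom, intensity trend), two-sided, with Benjamini-Hochberg adjustment over all tested probe sets at 0.05. The script was tested on simulated data. Precision is limited by having 2 arrays per group, and p-values measure only the spread between pools.

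Gene names came from the platform annotation, and all 10 probe sets matched RefSeq by Entrez number. A gene with several probe sets is represented by its brightest, and the other is given beside it. Every member was reported. Of the wider complement list at most the 4 genes of smallest p in a comparison, and for likeness the 5 nearest genes, were named. The members, lists and settings were chosen with earlier results of these data known, and genes picked out of the likeness and marker lists are descriptions only. Alternatives tried were other normalizations, no filter, an added constant of 32, a replicate block, no trend and each array left out.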

Additional observations from a re-analysis of the deposited data

Results flagged for a closer look

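For 2 genes, both early estradiol arrays lay on one side of the ovariectomy arrays and both late estradiol arrays on the other side. Serping1 stood at 0.53 for early estradiol minus ovariectomy and at -0.34 for late estradiol minus ovariectomy. Clu, by its bright probe set, stood at 0.14 and at -0.42, but its early estradiol arrays cleared those of ovariectomy only narrowly (11.9106 against 11.9043) and scaling to a common trimmed mean gave 0.021 in place of 0.14, while its dim probe set stood at 0.53 and 0.81. The difference itself, late against early estradiol, did not pass over all probe sets for either gene (limma adjusted p = 0.987 for both). With 2 arrays per group, no test for a single outlying array was made.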

How the results depend on the processing

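No complement gene difference passed the threshold in 672 recomputations under 14 settings. The fit nearest to it (Serping1, late against early estradiol) left out late estradiol replicate 2, so its late group was only the dimmest array. Among the 672 recomputed differences, 47 changed sign, 10 of them in comparisons that include early estradiol. Over all probe sets, late estradiol against ovariectomy gave 1 call with no filter, 1 with 32 added and 1 with a replicate block, which changed no complement call. The labels do not say what the shared numbers mean; replicate 2 minus replicate 1 correlated across probe sets in all 6 pairs of groups (r from 0.21 to 0.28), and genes are not independent replicates. Leaving out each array gave 0 to 3 calls for ovariectomy against sham, 0 to 65 for late estradiol against ovariectomy, 0 to 100 for late against early estradiol and 0 to 86 for late estradiol against sham, the last 3 highest without late estradiol replicate 2, where the lone array is assumed to vary like the other groups.

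Counts of complement probe sets whose groups lie apart changed with no normalization between arrays, which leaves brightness in: 1 higher and 0 lower for ovariectomy against sham, 1 and 0 for early estradiol against ovariectomy, 0 and 0 for late estradiol against ovariectomy, 1 lower for late against early estradiol, 1 higher for early estradiol against sham, and 1 higher and 0 lower for late estradiol against sham. Scaling gave 2 higher and 0 lower for ovariectomy against sham, 4 higher for early estradiol against ovariectomy and 5 lower for late against early estradiol. With no filter, C3ar1 joins, giving 1 higher for ovariectomy against sham, 2 lower for early estradiol against ovariectomy and 1 higher for late estradiol against sham. In settings chosen after seeing the data, leaving out replicate 1 of late or early estradiol makes groups easier to separate over all probe sets too. Late against early estradiol then gave 1 higher in either setting (32.1% and 31.2% of all). Early estradiol against sham gave 0 to 1 lower (29.3% of all for the 1), late estradiol against ovariectomy 1 to 3 higher (32.1% for the 3) and late estradiol against sham 0 to 4 higher (30.8% for the 4). The number of the 9 probe sets with an unadjusted p under 0.05 ran over all settings from 0 to 3 for early estradiol against ovariectomy, 1 to 6 for late against early estradiol, 0 to 3 for early estradiol against sham and 0 to 4 for the F test.

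With no normalization between arrays, signs changed to -0.31 (C1qa), -0.018 (C1qc) and -0.17 (C1r) for ovariectomy against sham, 0.060 (C1r) for early estradiol against ovariectomy, -0.29 (C1qb), -0.23 (C1s) and -0.014 (C3) for late estradiol against ovariectomy, and -0.11 (C1r) for early estradiol against sham. The median of all probe sets there was -0.31, 0.18, -0.31 and -0.14. Scaling gave 0.16 for Clu in ovariectomy against sham and 0.035 for C1qb in late estradiol against sham.

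Leaving out each array in turn changed signs within these ranges. For ovariectomy against sham, they were C1qa -0.56 to 0.61, C1qb -0.61 to 0.45, C1qc -0.19 to 0.80, C1r -0.029 to 0.40, C1s -0.35 to 0.017, Serping1 -0.056 to 0.031 and Clu -0.19 to 0.14. For early estradiol against ovariectomy, they were C1qa -0.063 to 1.10 and C1qc -0.19 to 0.78. For late estradiol against ovariectomy, they were C1qa -1.13 to 0.23, C1qb -0.48 to 0.58, C1qc -0.97 to 0.020, C1r -0.56 to 0.16, C1s -0.18 to 0.50 and C3 -0.41 to 1.18. For late estradiol against early estradiol, they were C1r -0.39 to 0.34 and C1s -0.65 to 0.033. For early estradiol against sham, they were C1r -0.20 to 0.22 and Clu -0.042 to 0.29. For late estradiol against sham, they were C1qa -1.11 to 0.25, C1qb -0.21 to 0.14, C1qc -0.61 to 0.28, C1r -0.38 to 0.35, C1s -0.35 to 0.33 and C3 -0.091 to 1.502.

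The arrays limit these results: 2 pools per group, with replicate 1 arrays dimmer than replicate 2 arrays in every group, and 1 array with a high Gapdh ratio. Except where a construction is named, the cause of a change was not tested.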
